A study of Mus musculus with 12 samples.

Results

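In immortalized mouse embryonic fibroblasts (iMEFs) that carry a deletion of Ezh2, some H3K27me3 peaks lay where no wild-type library had one. The regions described here are those of them found at promoters of protein-coding genes. A region was formed by merging overlapping peaks of both knockout libraries of experiment 1. It was kept where it held peaks of both, had no overlap with a peak of either wild-type library of that experiment, lay on an autosome other than chromosome 5, and reached within 2500 bp of the transcription start site (TSS) of a protein-coding gene (GENCODE M1, mm9). The rule gave 671 regions of 10885 knockout-only regions on those 18 autosomes (6.16%), at 683 of 20109 genes, a background of 3.4% of genes. The regions were thus chosen by the presence and absence of peaks in the 4 lists of experiment 1, and their values in these lists are described without a test.

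The data are H3K27me3 ChIP-seq peak lists of 10 libraries from a single clone of iMEFs transformed by retroviral c-Myc. The labels name the groups Ezh2 WT/WT and Ezh2 -/-. By the study's methods the clone was Ezh2 flox/Δ with ROSA26-CreERT2, a tamoxifen-activated recombinase, so that both groups carried these alleles and 4-hydroxytamoxifen removed the remaining Ezh2 copy in the knockout. Experiment 1 had 2 wild-type and 2 knockout libraries. Experiment 2 had 2 wild-type and 2 knockout libraries and 1 library each of cells given Flag-tagged Ezh1 or Ezh2 by retrovirus before the deletion, which the labels call the pre-rescue condition. The experiments differed in antibody and in sequencing platform (75-bp SOLiD reads in experiment 1, 100-bp Illumina reads in experiment 2). The study's legend to its H3K27me3 density plots speaks of 2 biological replicates. No source used here says that the 2 replicates of a group were separate cultures, so how much of the spread between them is technical is unknown.

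H3K27me3, the trimethylation of lysine 27 of histone H3, is laid down by PRC2, whose catalytic subunit is EZH2 or its less active relative EZH1. The mark is known for covering the promoters of silent developmental regulators in broad domains, which often span the TSS and CpG islands. Genes transcribed at a high level in every cell, such as those of ribosomal proteins, are textbook examples of promoters that lack it.

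The lists differed in size. The wild-type libraries of experiment 1 held 82566 and 82407 peaks, over 141 and 177 Mb. Knockout replicate 1 held 36477 peaks over 24.3 Mb and replicate 2 held 55563 over 56.7 Mb. In experiment 2 the wild-type lists held 18284 and 13417 peaks, the knockout lists 29 and 382, the Ezh1 rescue list 114211 and the Ezh2 rescue list 64628. A peak is given by its start and end alone, with no height, score or read count. The depth behind a peak is therefore unknown, and a list tells the place of a called peak and nothing of its strength.

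The regions lay beside the TSS more often than on it. Sequence from either place is shown here for a few of the genes, and from both places for Top2a. The contrast between a promoter and the peak next to it recurs through the results. In the first set, the 200 bases before the TSS are printed in lower case, with capitals on 3 of the searched motifs, on either strand. The first is CCAAT, bound by NF-Y. The GC box of Sp factors is GGGCGG. The core of the element that represses cell cycle genes in resting cells is TTTGAA. The genes are Orc2, a subunit of the origin recognition complex (minus strand, chr1:58561954-58562153), Top2a, the topoisomerase of mitotic chromosomes (minus strand, chr11:98885504-98885703), and Zic4, a developmental zinc finger factor (plus strand, chr9:91257051-91257250). All sequences were read from NCBIM37, the same build as mm9, 5′ to 3′ on the strand of the gene.
Orc2 upstream: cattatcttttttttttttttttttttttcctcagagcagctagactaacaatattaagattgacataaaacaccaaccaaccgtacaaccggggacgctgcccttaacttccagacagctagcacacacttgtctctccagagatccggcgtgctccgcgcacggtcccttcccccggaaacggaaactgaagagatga
Top2a upstream: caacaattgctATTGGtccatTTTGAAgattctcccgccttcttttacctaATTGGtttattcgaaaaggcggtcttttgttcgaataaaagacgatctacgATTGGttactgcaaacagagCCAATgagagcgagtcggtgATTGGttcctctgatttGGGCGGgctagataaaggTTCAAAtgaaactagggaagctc
Zic4 upstream: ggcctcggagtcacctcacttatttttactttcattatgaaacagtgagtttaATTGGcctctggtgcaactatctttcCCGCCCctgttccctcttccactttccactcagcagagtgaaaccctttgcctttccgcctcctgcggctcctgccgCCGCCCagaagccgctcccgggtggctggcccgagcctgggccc
The Top2a promoter held CCAAT boxes on both strands, a GC box and the cell cycle element. No knockout peak of experiment 1 touched that stretch. The Zic4 stretch, in contrast, lay inside its region, which ran from -1775 to 1967 bp relative to the TSS. Peaks of knockout replicate 1 covered all 3743 bp of that region. The Orc2 stretch held none of the motifs. The Orc2 promoter had a CpG observed/expected ratio of 1.00, where 1 is the number of CpG expected from the C and G present.

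The second set gives 150 bases from the middle of the peaks, with CG in capitals, intronic at all but the last one printed. Rpl3 and Rps12 encode proteins of the large and the small ribosomal subunit (minus strand, chr15:79912360-79912509 and chr10:23505509-23505658), Eno1 encodes the glycolytic enzyme enolase (plus strand, chr4:149612675-149612824), and Zfp146 encodes a zinc finger protein near the widest region (chr7:30941860-30942009, printed on the minus strand). The window of Top2a is also shown (minus strand, chr11:98884534-98884683).
Rpl3 intron: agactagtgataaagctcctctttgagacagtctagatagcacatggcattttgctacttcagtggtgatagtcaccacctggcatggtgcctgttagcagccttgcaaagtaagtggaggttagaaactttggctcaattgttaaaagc
Rps12 intron: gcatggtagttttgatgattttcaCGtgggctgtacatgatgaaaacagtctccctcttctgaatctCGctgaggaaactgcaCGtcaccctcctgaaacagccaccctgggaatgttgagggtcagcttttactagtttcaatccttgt
Eno1 intron: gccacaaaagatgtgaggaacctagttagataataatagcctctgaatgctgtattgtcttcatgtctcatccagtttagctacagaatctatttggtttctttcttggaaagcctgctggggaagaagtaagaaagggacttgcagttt
Top2a intron: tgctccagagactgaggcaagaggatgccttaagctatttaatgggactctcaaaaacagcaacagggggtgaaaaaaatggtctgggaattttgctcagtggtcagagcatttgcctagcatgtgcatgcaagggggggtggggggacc
Zfp146 region: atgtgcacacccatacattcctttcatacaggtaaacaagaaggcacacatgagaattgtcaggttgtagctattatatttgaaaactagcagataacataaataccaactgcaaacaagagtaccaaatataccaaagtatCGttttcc
The window of the Zfp146 region is centred 12812 bp after the TSS of that gene, past its end, with 0 bp in any protein-coding gene. The windows of Rpl3, Eno1 and Top2a held 0 CG, that of Zfp146 held 1 and that of Rps12 held 3. Of the 200 bases before its TSS, Top2a had 9 CG. The Rps12 window contains 74 bp of an annotated small nucleolar RNA (snoRNA), the class of intron-encoded RNAs that guide modification of ribosomal RNA.

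Most of the regions were short. The median width was 1193 bp (quartiles 714.5 and 2089.5, range 165 to 37298), and together they covered 1328.69 kb. Knockout replicate 1 covered a median of 712 bp of a region and replicate 2 a median of 964 bp, with 503 bp under peaks of both. The shared stretch was a median of 46.7% of the region. A single gene was at 598 of the regions, 2 genes at 70 and 3 genes at 3, a gene being counted wherever the region reached within 2500 bp of its TSS. The nearest wild-type peak of experiment 1 was a median of 51380 bp away and the closest was at 183 bp. A region can be free of wild-type peaks while its gene is not, and elsewhere within 2500 bp of the TSS 29 of the 683 genes had a peak in wild-type replicate 1 and 32 in replicate 2.

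Just inside the 2500-bp limit were the regions of Mup5, a major urinary protein gene, at 2497 bp and of Vat1l at 2475 bp. Those of Slc5a9 and 2310016M24Rik, at 2502 and 2511 bp, were just outside it. Knockout replicates 1 and 2 covered 3133 and 2935 bp of the region at Mup5 and 245 and 688 bp of that at Slc5a9.

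Relative to the nearest TSS, 420 of the 671 regions (62.6%, 95% Wilson interval 58.9 to 66.2) lay wholly downstream of it, towards the gene body. Another 174 (25.9%) lay wholly upstream and 77 (11.5%) spanned the TSS. Their midpoints were a median of 932 bp downstream. Of 5200 regions formed in the same way from the wild-type libraries at promoters (those below 20 kb), 36.8% were wholly downstream, 39.7% wholly upstream and 23.5% over the TSS. These wild-type regions were wider, with a median of 3113.5 bp beside 1193 bp. A wider region spans a TSS more readily, so the shares are not like for like, and the part of width was not tested. The Wilson intervals of the downstream shares do not overlap (35.5 to 38.1 for the wild-type regions), but the difference was not tested, since regions are not replicates and the same lists chose them. Within these regions, the peaks of knockout replicate 1 lay wholly downstream in 64.7% and those of replicate 2 in 63.3%. The rule required peaks of both libraries in each region, so this likeness is no independent check. With 1 library of experiment 1 left out in turn, the downstream share was 54.4 to 64.4%. Of the bases of the regions, 15.7% were exonic and 39.5% intronic in the annotation, against 7.01% and 40.4% at wild-type promoter regions and 2.13% and 35.1% at the 10214 knockout-only regions away from promoters.

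**Figure D1:**
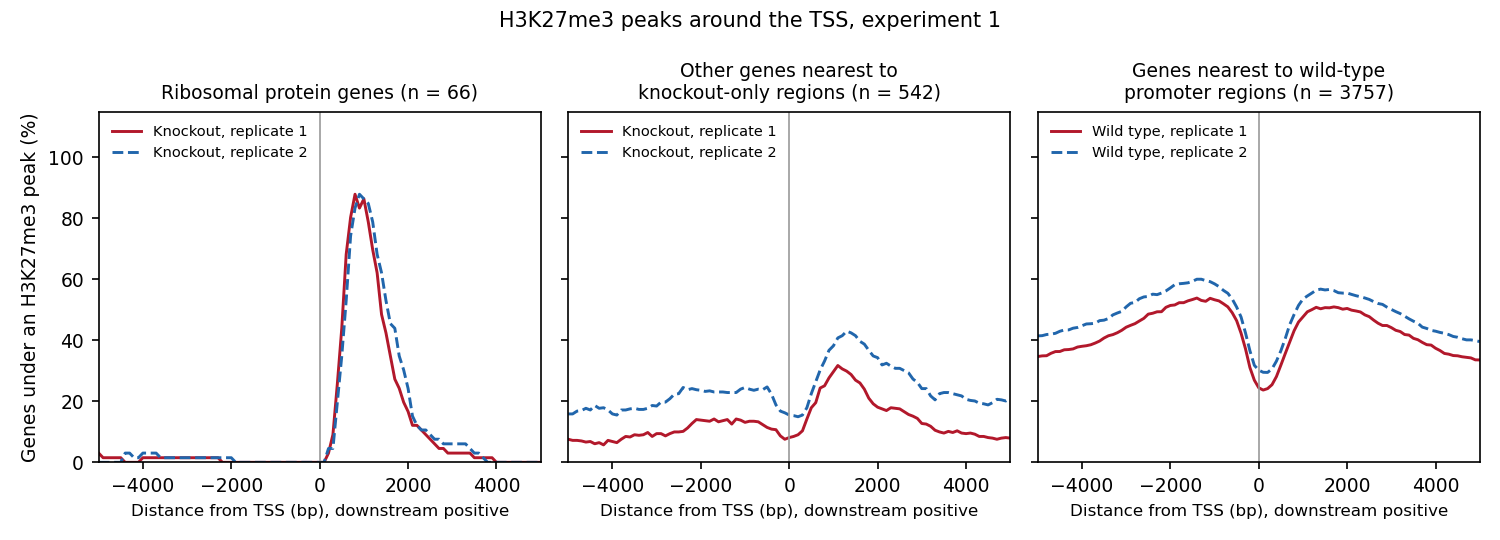
Share of genes (vertical axis, %) whose position at a given distance from the TSS (horizontal axis, bp, downstream positive) lay under an H3K27me3 peak of experiment 1, each line a library. Left, ribosomal protein genes at the regions; middle, the other genes nearest to a region; right, genes nearest to a wild-type promoter region. The knockout lines at ribosomal protein genes are at 0 on the TSS and stand at 86.4% at 1000 bp downstream, whereas the wild-type lines on the right dip at the TSS and rise on both sides.

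Cytosolic ribosomal protein genes were the best represented of 23 gene lists. Of the 73 on the 18 autosomes, 66 (90.4%) were at one of the regions, beside 3.4% of all protein-coding genes. Their 67 regions lay downstream of the TSS in 66 cases and over it in 0. The median start of the 67 regions was 500 bp and the median end 1709 bp downstream, and 41.0% of their bases were exonic. At 1000 bp downstream, 57 of the 66 genes were under a peak in knockout replicate 1 and 57 in replicate 2. At the TSS itself, 0 were in either.

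The widest shared stretches among ribosomal protein genes were those of Rpl3 and Rps12. At Rpl3 (chr15:79910489-79913699) the peaks covered 2446 bp in knockout replicate 1, 3211 bp in replicate 2 and 0 bp in both wild-type libraries, from 137 to 3347 bp after the TSS. At Rps12 (chr10:23504346-23506683) they covered 2187 and 2338 bp in the knockout, from 332 bp to 2669 bp. Rpl12, of the large subunit, had 1868 and 2085 bp and Rpl23, of the same subunit, 1874 and 1867 bp. At each of these 4 genes both knockout libraries had the peak and both wild-type libraries lacked it, which is what the rule required. The agreement between replicates was closer here than elsewhere, the shared stretch being a median of 70.5% of a ribosomal protein region, beside 46.7% over all 671. This too is a description from the lists that chose the regions.

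**Figure D2:**
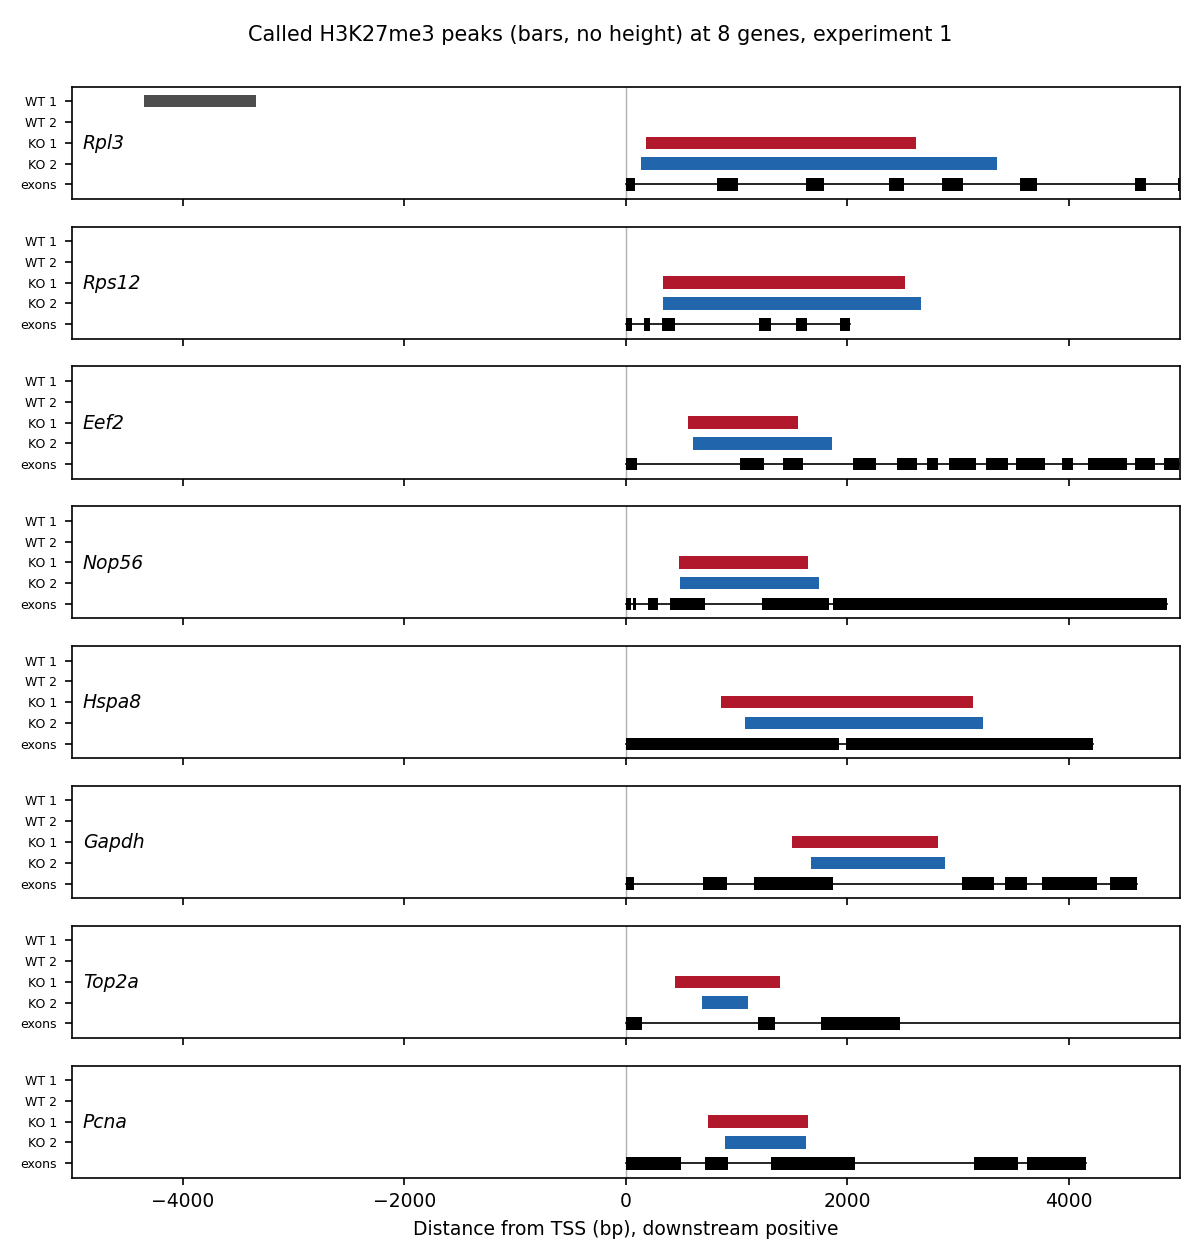
Positions of called peaks at 8 genes by distance from the TSS (horizontal axis, bp, downstream positive), with a row for each wild-type (WT) and knockout (KO) library of experiment 1 and, in black, the exons of all annotated transcripts combined. Bars show extent only; the knockout peaks start between 137 bp (Rpl3) and 1676 bp (Gapdh) after the TSS, and the one wild-type peak in view ends at -3337 bp from the TSS of Rpl3.

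The lists of ribosome biogenesis and MYC targets and of translation factors were next. The former also holds genes of other functions, such as the glycolytic gene Eno1. Of 36 ribosome biogenesis and MYC target genes, 13 (36.1%) were at a region, and of 52 translation factors, 17 (32.7%) were, beside 3.4% of all genes. Npm1, a nucleolar chaperone of ribosome assembly, had 1865 bp under knockout peaks in replicate 1 and 1794 bp in replicate 2. Nop58 and Nop56, core proteins of box C/D snoRNA particles, had 1364 and 1349 bp and 1167 and 1258 bp. Eno1, in the same list, had 2238 and 2013 bp (chr4:149611632-149613869). Among the factors of translation, Eif1, which selects the start codon, had 1561 and 1621 bp, Eif4a2, an RNA helicase of initiation, 1738 and 2123 bp, and Eef1g, an elongation factor subunit, 1348 and 1136 bp. Eef2, the ribosomal translocase, had 996 and 1255 bp, from 563 to 1863 bp after the TSS (chr10:80639939-80641239). In all, 28 of 29 regions of these genes lay wholly downstream of the TSS, with a median midpoint of 1113.5 bp, close to the 1112.5 bp of ribosomal protein genes.

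Housekeeping genes and genes of cell division were also represented. Of 24 housekeeping genes 7 (29.2%) were at a region, of 40 mitosis genes 7 (17.5%) and of 35 DNA replication genes 2 (5.71%). Together these made 16 of 99 genes (16.2%), beside 3.4% of all. Where regions rested on knockout replicate 1 alone, the shares of mitosis and replication genes were 40% and 20%, and on replicate 2 alone 17.5% and 11.4%. The count over all genes rose as well, to 1252 of 20109 genes on replicate 1 alone and 1344 on replicate 2 alone. The same counts are the background of each list share given below with 1 knockout replicate left out, in place of the 3.4%. Gapdh, a glycolytic enzyme, had 1320 and 1202 bp under peaks (chr6:125113608-125114989), Ppia, a prolyl isomerase, 587 and 776 bp, and Tuba1b, an alpha tubulin, 537 and 539 bp. Of the mitosis list, Top2a had 949 and 418 bp (chr11:98884110-98885058), Mki67, the Ki-67 antigen of dividing cells, 410 and 483 bp, Ccna2, cyclin A, 376 and 277 bp, and Incenp, of the chromosomal passenger complex, 276 and 574 bp. These are short peaks, and the pooled share fell to 5.05% when peaks had to be at least 550 bp wide, where the share of ribosomal protein genes was 71.2%. At that width 385 of the 20109 genes were at a region. Of the replication genes, Pcna, the sliding clamp of DNA polymerase, had 901 and 729 bp, from 742 to 1642 bp after the TSS. Orc2 had 3462 and 3943 bp, from -4292 to -247 bp relative to the TSS. Apart from Eef2, which is also in this housekeeping list, these genes had 16 regions, of which 15 were downstream and that of Orc2 was the other.

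**Figure D3:**
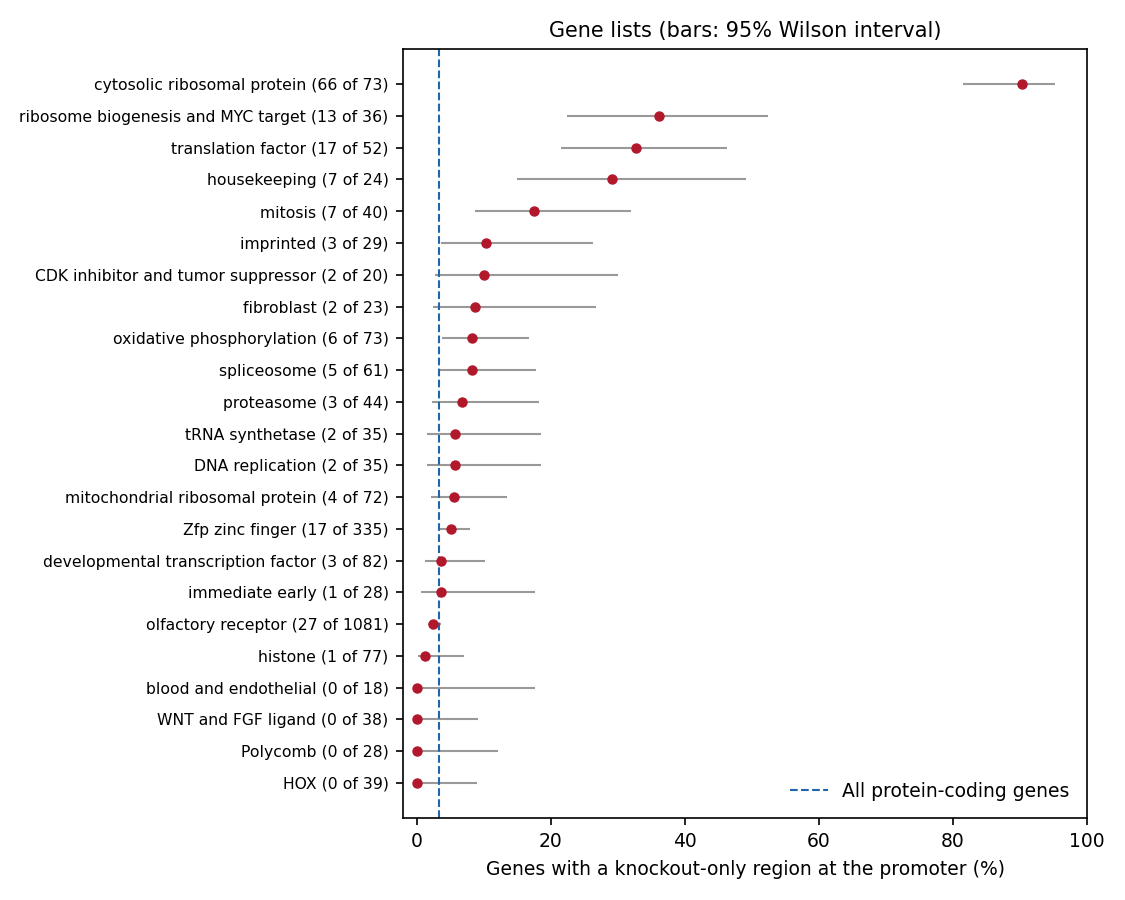
Share of the genes of each of 23 lists that had a knockout-only region at the promoter (horizontal axis, %), with the count of genes beside the name of the list; points are shares, bars 95% Wilson intervals and the dashed line the 3.4% of all protein-coding genes. Cytosolic ribosomal proteins stand at 90.4% and the next list, ribosome biogenesis and MYC targets, at 36.1%.

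Other complexes of every cell had lower shares, beside the 3.4% of all genes. There were 5 of 61 spliceosome genes (8.20%), 6 of 73 oxidative phosphorylation genes (8.22%), 3 of 44 proteasome genes (6.82%), 4 of 72 mitochondrial ribosomal protein genes (5.56%) and 2 of 35 tRNA synthetase genes (5.71%). Without knockout replicate 2 the shares were 29.5% for the spliceosome, 16.4% for oxidative phosphorylation, 20.5% for the proteasome, 15.3% for mitochondrial ribosomal proteins and 5.71% for tRNA synthetases. Without knockout replicate 1 the spliceosome share was 13.1%. Over all genes, 1344 of 20109 were at a region without replicate 1 and 1252 without replicate 2. The splicing factor Srsf2 had 1502 and 1593 bp under peaks and Srsf3 1332 and 1210 bp. Iars and Yars, the isoleucyl- and tyrosyl-tRNA synthetases, had 453 and 449 bp and 159 and 409 bp. Atp5b, the beta subunit of ATP synthase, had 841 and 853 bp. Some of these counts repeat regions of ribosomal protein or translation factor genes, because the genes share a promoter. The region of Ndufa7, of respiratory complex I, is that of Rps28, and lay from -1665 to -200 bp relative to the TSS of Ndufa7 but 171 to 1636 bp after that of Rps28. That of Mrpl49 is likewise that of Fau, which encodes a ribosomal protein fused to a ubiquitin-like protein. The region of Ndufs1, upstream of its TSS, is that of the translation factor Eef1b2. Snrpd3 was counted in both the housekeeping and the spliceosome list.

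Among genes of cell identity, 2 of 23 fibroblast genes (8.70%) were at a region, beside 3.4% of all genes. Vim, the intermediate filament protein vimentin, had 1849 and 1995 bp under peaks and Prrx1, a mesenchymal homeobox factor, 1241 and 858 bp, both downstream of the TSS. Of 20 CDK inhibitors and tumor suppressors 2 (10.0%) were at a region, among them Trp53, the p53 gene, with 298 and 180 bp. Without knockout replicate 2 the share of that list was 20% and that of fibroblast genes 13.0%. Of 29 imprinted genes, 3 (10.3%) were at a region, and 17.2% without knockout replicate 1. Nnat, which lies in an intron of another gene and is expressed from the paternal allele, had more than 1 region, with 3330 and 3903 bp from 576 to 4478 bp after the TSS and 1500 and 3068 bp before it. Nap1l5, also imprinted, had 1143 and 1631 bp. Whether a single allele carried the peaks cannot be read from these lists.

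The classes that H3K27me3 is best known for had few or no genes at the regions. Of 82 developmental transcription factors 3 (3.66%) were at a region, next to the 3.4% of all genes, and of 39 HOX, 38 WNT and FGF ligand, 28 Polycomb and 18 blood and endothelial genes there were 0. These lists are short, and the Wilson upper limits of the last 2 were 12.1% and 17.6%. Without knockout replicate 2, so that regions rest on replicate 1 alone, the Polycomb share was 7.14%, and without replicate 1 the blood and endothelial share was 5.56% and that of WNT and FGF ligands 2.63%. The wild-type lists bar a region that wild-type peaks touch, so genes marked in wild type could enter only where their peaks lay elsewhere. Zic4 had 3743 and 2136 bp under knockout peaks across its TSS, and shares the region with Zic1. Pax9, a factor of tooth and thymus development, had 301 and 688 bp upstream. Of 77 histone genes the list had 1, H2afx, whose product marks DNA breaks, with 865 and 373 bp. Of 28 immediate early genes it had 1, Dusp5, a MAP kinase phosphatase, with 353 and 325 bp that shared 30 bp. Their shares without knockout replicate 2 were 2.60% and 10.7%, and that of immediate early genes was also 10.7% without wild-type replicate 1 and 7.14% without knockout replicate 1.

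The widest regions were of another kind. Of the 10 with the longest shared stretch, 5 were at genes of the Zfp zinc finger list. That list as a whole had 17 of 335 genes at a region (5.07%, Wilson interval 3.19 to 7.98), an interval that holds the 3.4% of all genes. Without knockout replicate 2 its share was 8.66%, where the count over all genes rose as well, as given above. At Zfp146, whose region also reaches Gm5113, peaks covered 28711 and 37001 bp in knockout replicates 1 and 2 (chr7:30917177-30954474), and 0 bp in every library of experiment 2. At Zfp873 they covered 18502 and 19602 bp, at Zfp850 10088 and 13056 bp, at Zfp950 9232 and 9319 bp and at Zfp125 8994 and 11401 bp, in each case across the TSS. The other 5 were at 1700092K14Rik, Gm10311, Cdh4, Gm4924 and Morc2a, of which Cdh4 encodes a cadherin and had 12764 and 20821 bp, ending at -244 bp from the TSS. Of the 17 Zfp regions, 9 were downstream of the TSS, 2 upstream and 6 over it. Their median width was 2814 bp, beside 1217 bp for ribosomal protein regions.

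Olfactory receptor genes, which are silent outside the nose and lie in clusters, gave 27 of 1081 genes (2.50%), beside 3.4% of all genes. The share was 7.49% without knockout replicate 1, beside 1344 of 20109 genes over all, and 8.60% without replicate 2, beside 1252. The 30 regions of olfactory receptor genes were placed on both sides, 14 downstream, 8 upstream and 8 over the TSS. Olfr1339 had 1058 and 1064 bp under peaks, Olfr412 1577 and 1032 bp, Olfr781 1513 and 872 bp and Olfr366 857 and 1420 bp. The 512 regions in none of the groups placed above had 292 downstream, 157 upstream and 63 over the TSS, a downstream share of 57.0%. The downstream position was thus most complete at the ribosomal and translation genes, and held in a smaller majority of the rest.

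Base composition was not used to choose the regions. Their median GC content was 45.3% (quartiles 42.5 and 48.8), beside 47.0% for wild-type promoter regions and 44.7% for knockout-only regions elsewhere. Around the TSS of the nearest genes, within 500 bp, it was 54.9%, the same as the 54.9% of all protein-coding genes. The median CpG observed/expected was 0.241 in the regions, 0.213 in wild-type promoter regions and 0.149 in knockout-only regions elsewhere, but 0.636 around the TSS of the genes nearest to the regions and 0.553 around the TSS of all genes. At ribosomal protein genes it was 0.403 in the regions and 0.823 around the TSS. The regions thus lay in sequence poorer in CpG than the start sites they neighboured, as the printed stretches of Top2a show. The quartile ranges of the regions and of the wild-type promoter regions overlapped, and no test was made over regions. With 1 library of experiment 1 left out, the CpG ratio of the regions fell as low as 0.177, below the 0.213 of wild-type promoter regions.

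**Figure D4:**
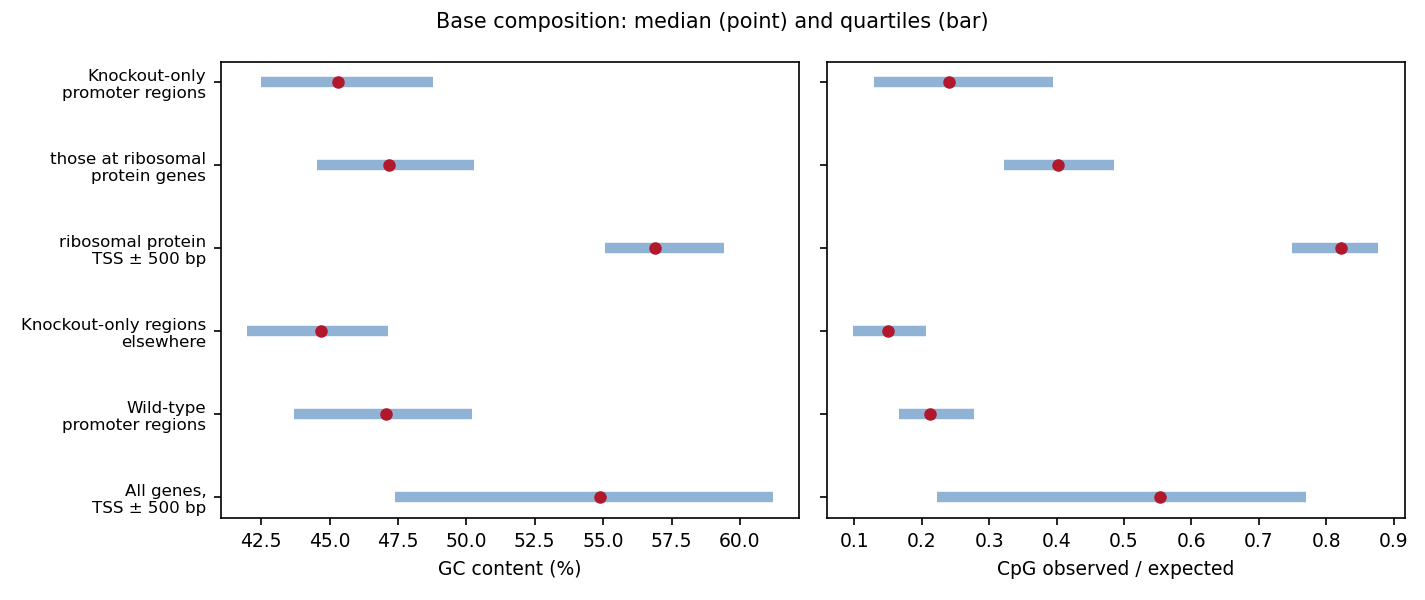
GC content (left, %) and CpG observed/expected (right) of the regions, of those at ribosomal protein genes, of other sets of regions and of the 500 bp on either side of the TSS; points are medians and bars span the quartiles. At ribosomal protein genes the bars of the regions and of the TSS do not overlap on either scale, with CpG medians of 0.403 and 0.823.

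Promoter motifs were searched in the 200 bp before the TSS, on both strands. CCGGAAG, the core site of ETS factors, was in 10.4% of the 683 promoters and 25.8% of the 66 ribosomal protein promoters, beside 7.66% of all 20109. AAGATGG, the core of the YY1 site, was in 4.39% against 3.51%, and CACGTG, the E-box bound by MYC, in 6.15% against 5.55%. Both shares were within 1 percentage point of all promoters. Those of CCAAT (31.0% and 30.4%), GGGCGG (37.2% and 37.8%) and TATAAA, the TATA box (9.81% and 10.3%), were too. The same held for GCATGCG, part of the NRF1 site (3.22% and 3.28%), and TTTGAA (11.1% and 11.1%). A match is a description of the sequence only. The motifs can lie on shared bases, and the ETS share without ribosomal protein genes was 8.75%.

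Hosts of snoRNAs were frequent among the genes. A snoRNA lay within 60 of the 683 genes (8.78%), beside 1.19% of all protein-coding genes. The share was 5.06% without knockout replicate 1 and 5.91% without replicate 2. In the other direction, 60 of the 239 host genes (25.1%) were at a region. The count was not only one of ribosomal proteins, 24 of whose 66 genes at regions were hosts. Without them it was 36 of 617 genes (5.83%), beside 1.07%, among which were Nop58, Nop56, Ncl, Eef2, Eif4a2, Iars, Yars and Hspa8, the constitutive chaperone Hsc70. The regions themselves overlapped a snoRNA in 34 of 671 cases (5.07%), beside 4 of the 5200 wild-type promoter regions (0.0769%) and 24 of the 10214 knockout-only regions elsewhere. Of the 34, 17 were ribosomal protein regions, and without such regions the share was 17 of 604 (2.81%). The genes nearest to the regions were short, with a median length of 8253.5 bp, beside 15208 bp over all genes and 3180 bp for ribosomal protein genes. The part of gene length in the share of hosts was not tested.

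Experiment 2 was independent of the rule. Its knockout libraries had a peak at 0 and 2 of the 671 regions, beside 0% and 0.0196% of the knockout-only regions elsewhere. Its wild-type libraries had one at 2 and 0, beside 0.284% and 0.108%. By covered length, peaks took 0.0564% ± 0.0798 (SD, n = 2) of the bases of the regions in wild type and 0.0302% ± 0.0427 (SD, n = 2) in the knockout (exact permutation test, two-sided, p = 1, where 2 against 2 cannot go below 0.333). The wild-type values were 0.113% and 0%, the knockout values 0% and 0.0604%, and the groups overlapped. At nearly all of these places the knockout lists of experiment 2 thus had no peak. Over all protein-coding genes of the 18 autosomes, however, the experiment 2 knockout lists put a peak at 0.0348% and 0.363% of promoters, and with so few peaks called an absence at a region has little weight. Antibody, read type and experiment changed together and cannot be told apart.

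The 2 regions found again in the second knockout library of experiment 2 were those of Nop56 and Hspa8. At Nop56 the peak ran from 1685 to 2584 bp after the TSS and met the region, which ended at 1746 bp, over 62 bp. At Hspa8 it ran from 2484 to 3433 bp and met the region over 740 bp, where experiment 1 had 2280 and 2144 bp (chr9:40609923-40612290). Both are snoRNA hosts. The 2 regions with a wild-type peak in experiment 2 were upstream of Phactr3 (950 bp) and of Sdk2 (550 bp), which encodes a cell adhesion protein of the immunoglobulin superfamily.

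In the rescue libraries the regions had more peaks than in the other libraries of experiment 2, but their genes had fewer than all genes together. The rescue lists were also larger, over 256 Mb (Ezh1) and 80.6 Mb (Ezh2). The wild-type lists of experiment 2 covered 14.9 and 11.3 Mb and its knockout lists 0.059 and 0.481 Mb. The part of list size in these counts was not tested. The Ezh1 rescue had a peak at 39 regions (5.81%, Wilson interval 4.28 to 7.85) and the Ezh2 rescue at 16 (2.38%, 1.47 to 3.84). Knockout-only regions elsewhere had one in 3.55% and 1.57%, and wild-type promoter regions in 89.4% and 65.6%. Counted by gene, the Ezh1 rescue had promoter peaks at 60 of the 683 genes (8.78%), beside 28.7% of all protein-coding genes. The Ezh2 rescue had them at 34 (4.98%), beside 19.3% of all. The rule bears on this, since it barred regions that wild-type peaks touch. In experiment 1 the wild-type libraries had promoter peaks at 4.25% and 4.69% of these genes, beside 23.1% of all genes in each, so that a low share in the rescues is no independent finding. In the wild-type libraries of experiment 2 these were 9 and 5 genes, beside 7.11% and 6.23% of all. The rescues have 1 library each, so that the difference between them has no replicate check, and the intervals cover counting error only.

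**Figure D5:**
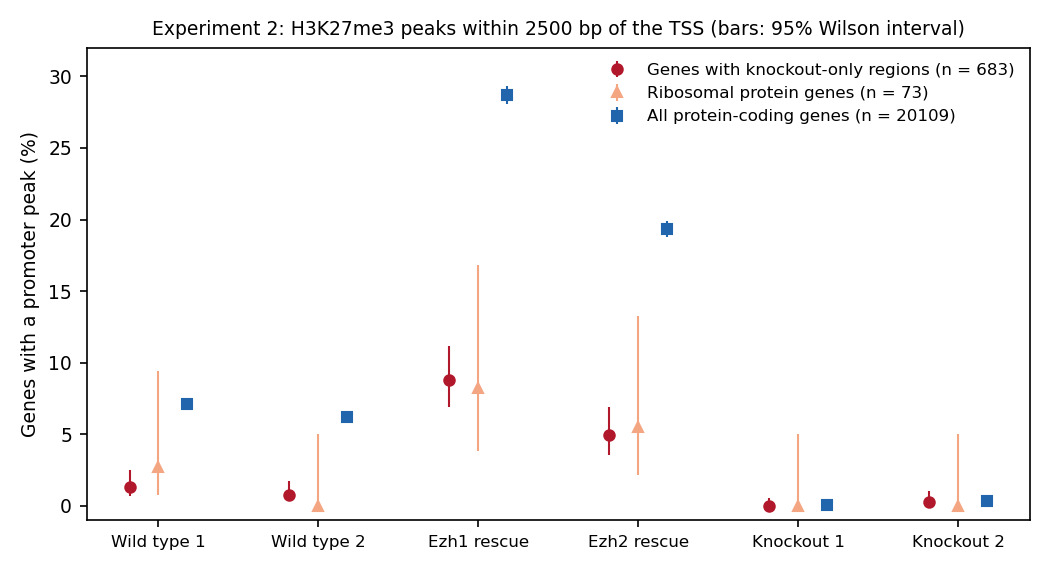
Share of genes with a promoter peak, that is up to 2500 bp from the TSS (vertical axis, %), in each of the 6 libraries of experiment 2, for the genes at knockout-only regions, the ribosomal protein genes and all protein-coding genes; bars are 95% Wilson intervals. In the wild-type and rescue libraries the genes at the regions lie below all genes, at 8.78% against 28.7% in the Ezh1 rescue.

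The rescue peaks did not fall on the ribosomal protein regions. All 67 had 0 bp under peaks of each of the 6 libraries, which allows a share of up to 4.48% in each by a limit of 3 counts of 67, and up to 5.42% by the Wilson interval. Of the 73 ribosomal protein genes, 6 had a peak elsewhere around the TSS, within 2500 bp, in cells rescued with Ezh1 and 4 in those rescued with Ezh2. The longest overlaps with the Ezh1 rescue were at B430306N03Rik (2286 bp, of a region of 6350 bp), Gm9880 (1736 bp), Phactr3 (1588 bp) and Bpifb4 (1443 bp). With the Ezh2 rescue they were at Bpifb4 (1800 bp), B430306N03Rik (1550 bp), Gm9880 (1486 bp) and Gm10807 (1117 bp). Of these, B430306N03Rik had 781 bp under peaks in knockout replicate 1 and 6350 bp in replicate 2, a gap between replicates of the kind seen at many regions outside the ribosomal protein genes. The wide region of Zfp850 met the Ezh1 rescue over 800 bp.

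By chromosome, the share of genes at a region ran from 1.71% on chromosome 6 to 5.02% on chromosome 15 and 5.40% on chromosome 12. On chromosome 5, left out by the rule, the same steps gave 112 promoter regions of 3139 knockout-only regions (3.57%, beside 6.16% on the other autosomes) at 7.26% of its genes, with 46.4% wholly downstream of the TSS. That chromosome held 5.16 of the 24.3 Mb under peaks of knockout replicate 1 and 12.3 of the 56.7 Mb of replicate 2.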

How the data were processed

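The data used were peak lists from H3K27me3 ChIP-seq in 10 libraries. By the study's methods, chromatin was digested with micrococcal nuclease, reads were mapped to mm9, duplicates were removed, reads were down-sampled, a coefficient below 1, set by the amount of immunoprecipitated DNA, was applied to the knockout and another to the Ezh1 rescue, and peaks were called per sample against input. By this account the knockout libraries, whose peaks make up the regions, were scaled unlike the wild type. The lists do not show whether the scaling entered the peak calling, and its part in the regions was not tested. MACS2 2.0.10, HOMER 3.17, SAMtools, Bowtie2 2.1.0 and Bowtie 0.12.8 are given in the submitters' processing notes. The files deposited by the authors locate each peak by chromosome, start and end and hold no other value, with no count, score or p-value. The 2 input samples were not analysed here.

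Exact duplicate peaks and peaks on the mitochondrial genome were dropped, and overlap meant at least 1 bp. The TSS was the 5′ end of a GENCODE M1 gene on NCBIM37, and positions are 1-based. Wild-type promoter regions were formed by the same steps from the wild-type lists of experiment 1 and kept below 20 kb. A region was placed relative to its nearest TSS, or for a listed group relative to the gene of the group. Exons and introns were taken from all annotated transcripts. The members and gene lists were chosen with earlier results of these data known, and 4 list entries were not matched to the annotation. Named were the 10 regions with the longest stretch under both knockout lists, up to 4 genes of each list by the same measure, regions with a peak in a knockout or wild-type list of experiment 2, the 4 regions with the longest overlap with each rescue, and 2 regions on each side of the 2500-bp limit. Other snoRNA hosts, Zic1, Rps28, Fau, Eef1b2 and the ribosomal protein genes without a region were named after their values were seen. Some genes and 1 promoter sequence are not reported here.

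Shares have 95% Wilson intervals, which cover counting error only and have no p-value, since regions and genes are not replicates. Wild type and knockout of experiment 2 were compared by an exact permutation test over libraries. Overlap code was tested on simulated data. Alternatives were other promoter windows, peak widths, joining and overlap limits, chromosome 5 included, all transcript starts, and each library left out. The software was SciPy 1.17.1, pandas 2.3.3, NumPy 2.4.6 and matplotlib 3.10.9 under Python 3.11.15.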

Additional observations from a re-analysis of the deposited data

How the results depend on the processing

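The lists hold no heights, so a limit on peak strength could not be tried, and width is the nearest stand-in. With peaks of at least 550 bp there were 362 regions at 385 genes, with 71.2% of ribosomal protein genes, 5.05% of housekeeping, replication and mitosis genes, 58.8% of regions downstream and rescue shares of 8.56% (Ezh1) and 4.42% (Ezh2). With at least 1000 bp there were 181 regions at 193 genes, and the shares were 31.5%, 2.02% and 55.2%, with a median GC of 45.7%. Counts of genes thus rest on short peaks. The downstream share was 52.5% with all transcript starts and 58.8% with peaks under 1000 bp apart joined.

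Leaving out 1 library of experiment 1 in turn gave 690 to 1630 regions at 700 to 1344 genes, the most without knockout replicate 1, and 1257 regions at 1252 genes without knockout replicate 2. The share of ribosomal protein genes was 90.4 to 93.2%, that downstream 54.4 to 64.4%, that of housekeeping, replication and mitosis genes 16.2 to 33.3% (the highest without knockout replicate 2), those in the Ezh1 and Ezh2 rescue 3.50 to 8.18% and 0.796 to 3.73%, the median GC 44.6 to 45.4% and the CpG ratio 0.177 to 0.243. GC moved by more than the spread between knockout libraries under 10 settings and stayed within it under 4. For CpG these counts were 9 and 5. The CpG ratios of 0.177 and, within 5000 bp, 0.190 were below the 0.213 of wild-type promoter regions in the main setting, so that order is not stable. GC and CpG were 45.5% and 0.228 with a wild-type overlap of 50% as the limit, 44.9% and 0.226 with peaks joined, 45.1% and 0.190 within 5000 bp of the TSS, 45.5% and 0.228 with chromosome 5, and 45.4% and 0.219 with all transcript starts. CpG was 0.288 within 1000 bp. In 2 settings chosen after seeing the data, GC and CpG were 45.5% and 0.220 with regions of 1 gene (ribosomal protein share 69.9%) and 45.1% and 0.217 without ribosomal protein genes. The rescue shares were 10.1% and 5.26% with the wild-type overlap limit of 50%, and 1.79% and 0.596% where a rescue peak had to cover 50% of the region.

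The experiment 2 difference between wild type and knockout (0.0263 percentage points, wild type minus knockout) changed sign within 1000 bp of the TSS (-0.0138), without experiment 1 knockout replicate 2 (-0.0349), without experiment 2 wild-type replicate 1 (-0.0302) and without experiment 2 knockout replicate 1 (-0.00391). Its range with 1 library left out was -0.0349 to 0.138. With replicate numbers as pairs (a replicate block) it was 0.0263, from pair differences of 0.113 and -0.0604 (exact sign-flip permutation test, two-sided, p = 1). With 2 pairs whether the numbers pair the libraries could not be judged. The cause of these changes was not tested. Of 412 values for single lists, motifs and snoRNA hosts under the alternatives, 360 were counted as unmoved and 52 as moved. A share counted as unmoved where it lay within the Wilson interval of the share reported. That interval is wide for short lists, so an unmoved share can differ much in size. The share of immediate early genes, 3.57% (interval 0.633 to 17.7), counted as unmoved at 10.7% with the wild-type overlap limit of 50%.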

Other observations

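Ribosomal protein genes outside the 66 at the regions are given as values, as bp under peaks of knockout replicates 1 and 2. On chromosome 5, which the rule left out, all 5 such genes had promoter peaks in both knockout libraries. They were Rpl21 (588 and 980 bp), Rpl5 (696 and 1087 bp), Rpl6 (936 and 1030 bp), Rpl9 (1186 and 1221 bp) and Rplp0 (1298 and 1149 bp). Of these, Rpl5 also had 233 bp under a wild-type peak within 2500 bp of the TSS in each wild-type library. On the X chromosome, all 4 had them too, namely Rpl10 (930 and 1116 bp), Rpl36a (393 and 150 bp), Rpl39 (1124 and 1555 bp) and Rps4x (1942 and 1513 bp), with 0 bp under wild-type peaks.

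On the 18 autosomes, 7 ribosomal protein genes had no region. Rpl22 (708 bp) and Rpl29 (419 bp) had a promoter peak in knockout replicate 1 alone, and Rpl10l, a testis paralog, had one in replicate 2 alone (669 bp). Rpl13a and Rpl18 had knockout peaks within the gene body (1869 and 1317 bp, and 811 and 752 bp) but beyond 2500 bp from the annotated TSS. Rpl3l, a paralog of heart and skeletal muscle, had 0 bp under knockout peaks and 3489 and 1982 bp under wild-type promoter peaks in wild-type replicates 1 and 2. Rps27l had no peak in any of the 4 lists of experiment 1.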
